A study of Mus musculus with 8 samples.

Results

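The gasdermins are pore-forming proteins, and on these arrays they were followed through every probe whose gene name in the scanner files begins with Gsdm. The rule found 12 probes of 10 gene names among the array's 55681 probes. They comprised 4 probes of 3 genes of the A branch (Gsdma, Gsdma2, Gsdma3), 7 probes of 6 genes of the C branch (Gsdmc, Gsdmc3, Gsdmc4 and the copies Gsdmcl1, Gsdmcl2 and Gsdmcl-ps) and 1 probe of Gsdmd. No probe carries the name Gsdmc2, and 1 of the Gsdmc3 probes lists transcripts of both Gsdmc3 and Gsdmc2. RefSeq lists Gsdmcl1, Gsdmcl2 and Gsdmcl-ps as transcribed pseudogenes. Membership was defined by the probe name alone. The family itself was selected on earlier results of these arrays, the genotype differences in mTEC and in SIEC, so its genotype values are a description and no independent support for anything.

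Total RNA of 8 pooled mouse samples of mixed C57BL/6 and 129 background was hybridised to 1-colour arrays, 1 array per sample. Medullary thymic epithelial cells (mTEC) were live CD45-negative cells positive for Epcam and the lectin UEA1 and high for CD80 and MHC class II, with material of 4 to 6 thymi per sample. There were 3 arrays of Cdx1+/+ mTEC and 3 of mTEC from Cdx1-/- mice, which lack the intestinal homeobox transcription factor Cdx1. Small intestine epithelial cells (SIEC) were live Epcam-positive, CD45-negative cells pooled from 3 mice per sample, with 1 array labelled Cdx1+/+ and 1 labelled Cdx1-/-. The age of the mice, how the allele was made and the purity after sorting are not stated in the labels. Samples of an mTEC group are pools of different thymi, so p-values between the mTEC groups measure the spread between pools. SIEC has 1 array per label and gives no spread between its pools.

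Gasdermins share an N-terminal domain that is held inactive by the C-terminal domain until a protease cuts the linker between them. The freed N-terminal part then assembles into pores in the plasma membrane, which let cytokines out and can end in pyroptosis. Gsdmd is the target of the inflammatory caspases and is widely expressed in epithelium and immune cells, the A branch is known from skin and other stratified epithelium, and the C branch from intestinal epithelium, where type 2 cytokines raise it. Mature mTEC express many genes of other tissues, including those of skin and intestine.

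The C branch probes carry most of the values below, so their sequences are shown first. Gsdmc and its copies arose by duplication, and near copies can share signal. Among the 66 pairs of gasdermin probes, 1 pair shared a run of at least 10 bases, Gsdmc and the Gsdmc3 probe A_52_P498798, with 15 bases in a row. Their closest stretch of 30 bases differs at only a few positions, and 27 of the 30 bases are the same. The capitals mark the bases that both probes have, and each line is read 5′ to 3′ from the 60-base probe.
Gsdmc: CCAGCCTCaGtCCTGGATACATTTGAgATA
Gsdmc3 (A_52_P498798): CCAGCCTCcGaCCTGGATACATTTGAtATA
The middle 30 bases of the other Gsdmc3 probe and of the Gsdmc4 probe show no such likeness, and the longest run shared by any other pair of gasdermin probes was 9 bases.
Gsdmc3 (A_55_P2011101): gaaacaggatgttgttatctgtcaaaaata
Gsdmc4: gagtgcatgttttaggctggtgggaataaa
No probe outside the family shared 20 bases with a gasdermin probe, on either strand. Probes were compared with probes only. Whether a probe also reads the transcript of another copy was not tested, so the C branch readings may not be separate measurements. The pseudogene copies are dim and less well measured, and their probes are unlike those of the coding genes as well.
Gsdmcl-ps: tcccagggcacaagaactttctaaattata
Gsdmcl2: cagcccttggagagaaagctaggacagcct
Gsdmcl1: acacagtgtaagcccctatgccgttatcat

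On the mouse build mm9 the C branch lies together on chromosome 15. The Gsdmc probe is at chr15:63608169-63608228 and the Gsdmcl1 probe at chr15:63682437-63682496. The Gsdmc3 probes follow at chr15:63689307-63689366 (A_55_P2011101) and chr15:63689822-63689881 (A_52_P498798). The Gsdmcl2 probe is at chr15:63720569-63720628, the Gsdmc4 probe at chr15:63723278-63723337 and the Gsdmcl-ps probe at chr15:63756950-63757008. The probes of Gsdmc, Gsdmc3 and Gsdmc4 lie on the minus strand and those of the 3 pseudogenes on the plus strand. Gsdmd is farther along the same chromosome, at chr15:75697536-75697595. The A branch lies on chromosome 11, from the Gsdma3 probe at chr11:98499344-98499403 through the Gsdma2 probes at chr11:98512243-98512302 (A_55_P2011096) and chr11:98519203-98519262 (A_55_P2011097) to the Gsdma probe at chr11:98537914-98537973. The exon of each probe was not looked up here.

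Among the promoters at hand from RefSeq (GRCm38.p6), Gsdmc3 and Gsdma3 were the members with an entry. The 250 bases before the start of Gsdmc3, at chr15:63878559-63878808 on the minus strand, are shown because the C branch probes moved together with Cdx1 genotype. The capitals mark matches to TTTAC, 1 of the core motifs that Cdx proteins bind, read on either strand.
Gsdmc3 promoter: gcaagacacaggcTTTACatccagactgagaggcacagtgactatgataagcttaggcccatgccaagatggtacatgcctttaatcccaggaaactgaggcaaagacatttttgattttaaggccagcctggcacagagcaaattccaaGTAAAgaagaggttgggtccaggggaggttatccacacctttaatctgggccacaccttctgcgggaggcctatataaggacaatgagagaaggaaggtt
TTTAC was found 2 times there, starting at -237 and -100 relative to the gene start, and TTTAT, the other core motif searched on both strands, was found 0 times. The Gsdma3 promoter held TTTAT 1 time and TTTAC 0 times. The motifs do not overlap each other, and they are common: 28.3% of 32851 promoters of the same length hold TTTAC and 37.3% hold TTTAT. A match describes the letters of this window only.

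The labels were checked on marker genes. In both mTEC groups 9 of 9 mature mTEC markers were above background, with a summed level of 362 to 414 times the array's 75th percentile in Cdx1+/+ and 355 to 405 in Cdx1-/- arrays. In SIEC this sum was 83.0 and 86.3, and Aire, Fezf2, Krt5, Cd40 and Cd86 were not above background. The 14 enterocyte genes were all above background in SIEC, but so were 14 in Cdx1+/+ and 13 in Cdx1-/- mTEC, so detection does not separate the tissues. Their summed level was 3074 and 4537 in SIEC, beside 59.3 to 67.9 in Cdx1+/+ and 27.7 to 28.2 in Cdx1-/- mTEC. Spots above background made up 58.6 to 63.5% of each mTEC array and 44.6 to 46.3% of each SIEC array. Cdx1 itself was lower in Cdx1-/- mTEC, at 4.93 ± 0.11 against 5.91 ± 0.04 (log2 level relative to the array's 75th percentile, SD, n = 3; limma adjusted p = 0.00509), but still well above background. In SIEC it went the other way, with 4.87 for the label Cdx1+/+ and 6.48 for the label Cdx1-/-. The labels of the SIEC pair are therefore given as labels throughout, and every direction in that pair depends on them. The labels do not say which part of Cdx1 is deleted, so the probe checks the labels only in part.

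**Figure D1:**
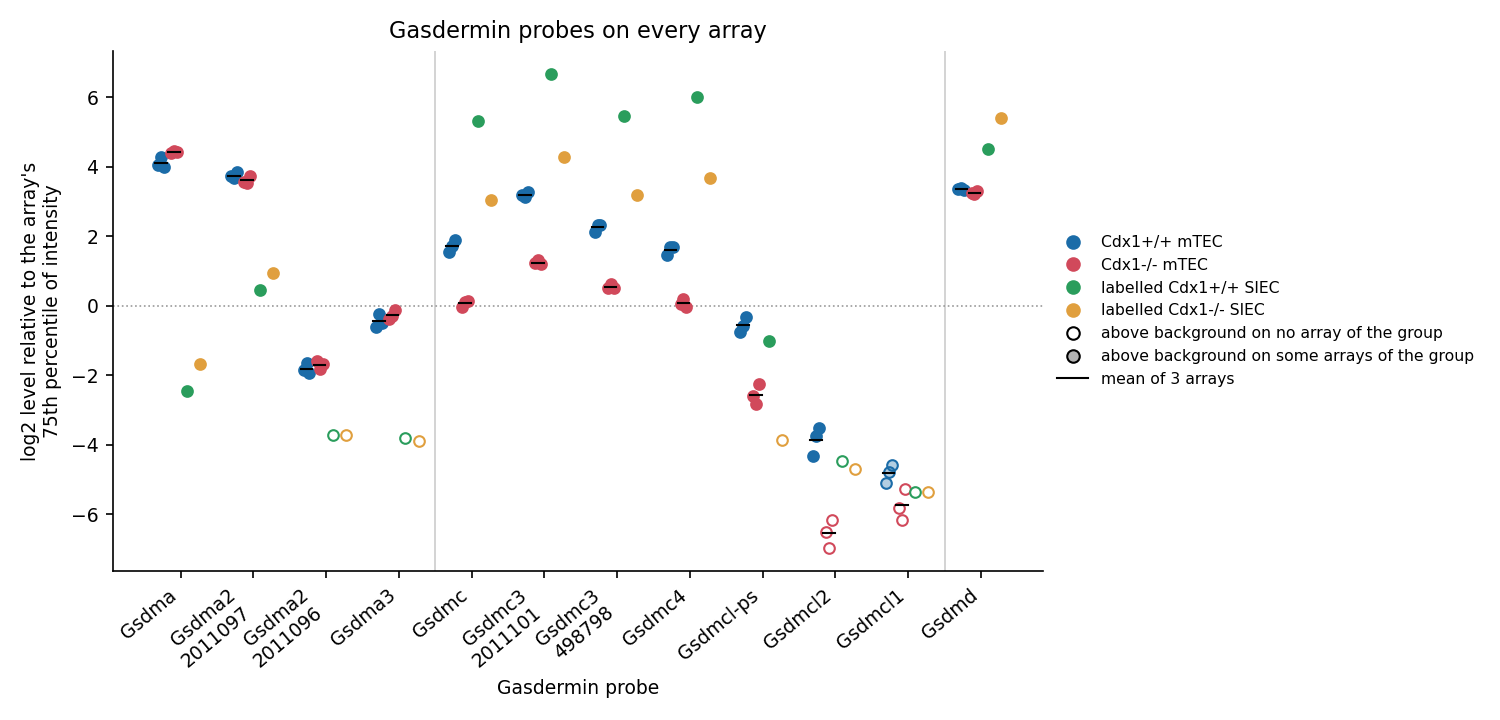
Log2 level of each of the 12 gasdermin probes (x axis) on all 8 arrays (y axis, relative to the array's 75th percentile of intensity), coloured by group, with a bar at the mean of 3 mTEC arrays. The C branch probes of Gsdmc, Gsdmc3 and Gsdmc4 are lower on all 3 Cdx1-/- than on all 3 Cdx1+/+ mTEC arrays and highest on the SIEC array labelled Cdx1+/+. Each A branch probe reads higher in mTEC than in SIEC.

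The first comparison asked what loss of Cdx1 does to gasdermin expression in mTEC. The C branch was lower in Cdx1-/- mTEC, by 2.91 to 3.98-fold for the 5 probes measured on every mTEC array, and the A branch and Gsdmd did not pass the test. Of the 12 gasdermin probes 6 were called lower and 0 higher (limma, Benjamini-Hochberg adjusted p under 0.05 over 33523 probes). All 6 belong to the C branch, where 6 of 7 probes were called. Over all probes tested 10.5% were called, 5.29% lower and 5.2% higher, and 1.11% were both called and at least 2-fold lower. An unadjusted p under 0.05 was found for 29.3%. The median difference of the 7 C branch probes was -1.71 on the log2 scale, beside 0.00 for all probes. All values below are log2 levels relative to the array's 75th percentile, and levels of different probes cannot be set against each other as amounts.

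Gsdmc3, a coding gene of the C branch, was read by the brighter of its probes, A_55_P2011101, at 3.17, 3.13 and 3.28 on the Cdx1+/+ mTEC arrays and at 1.23, 1.31 and 1.19 on the Cdx1-/- arrays. The groups lie far apart and the arrays within each are close together. The difference was -1.95 (SE 0.09, 95% confidence interval -2.16 to -1.74, limma adjusted p = 0.00153), a 3.87-fold lower level. This probe cannot tell Gsdmc3 from Gsdmc2. The other Gsdmc3 probe, A_52_P498798, read 2.11, 2.33 and 2.33 against 0.51, 0.63 and 0.51, a difference of -1.71 (SE 0.10, adjusted p = 0.00232). Both probes of the symbol thus gave the same direction, and their intervals overlap.

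Gsdmc, another coding gene of the branch, gave 1.53, 1.73 and 1.88 in Cdx1+/+ and -0.03, 0.11 and 0.13 in Cdx1-/- mTEC. It was 3.12-fold lower, with a difference of -1.64 (SE 0.12, limma adjusted p = 0.00293). Gsdmc4, the copy next to Gsdmcl2, gave 1.45, 1.68 and 1.70 against 0.06, 0.18 and -0.04. Its difference was -1.54 (SE 0.11, adjusted p = 0.00295), and the groups again do not overlap. Groups that do not overlap were found for 36.4% of all probes tested, in either direction.

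The pseudogene copies were dimmer. Gsdmcl-ps read -0.76, -0.59 and -0.33 in Cdx1+/+ and -2.60, -2.82 and -2.25 in Cdx1-/- mTEC, above background on all 6 arrays, and was 3.98-fold lower (difference -1.99, SE 0.18, limma adjusted p = 0.00438). Gsdmcl2 read -4.34, -3.76 and -3.52 in Cdx1+/+ arrays and was above background on 0 of 3 Cdx1-/- arrays, at -6.51, -6.96 and -6.17. The fitted difference of -2.67 (limma adjusted p = 0.0056) uses these readings. As a bound, Gsdmcl2 was at least 1.91-fold lower, and the p-value does not test this bound. A bound sets the bright group's mean against the lowest signal among probes above background on each dim array, or the probe's own value if higher. Such bounds hold for the main background subtraction only. With a normexp background correction the difference of Gsdmcl2 shrank to -0.57 and the call was lost (limma adjusted p = 0.132). Gsdmcl1 was above background on 2 of 3 Cdx1+/+ and on 0 of 3 Cdx1-/- arrays. It read -5.09, -4.79 and -4.59 against -5.82, -6.16 and -5.27, just outside the threshold (difference -0.92, SE 0.24, adjusted p = 0.0604), and with the replicate number as a block it was called (adjusted p = 0.0449).

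The A branch did not pass the test in mTEC. Gsdma, known from skin and stomach epithelium, read 4.06, 4.29 and 3.99 in Cdx1+/+ and 4.39, 4.45 and 4.43 in Cdx1-/- arrays. All Cdx1-/- arrays lie above all Cdx1+/+ arrays, with a difference of 0.31 (95% confidence interval 0.06 to 0.56, limma adjusted p = 0.109). Gsdma3, mutated in mice with hair loss, differed by 0.18 (interval -0.12 to 0.48, adjusted p = 0.384). The Gsdma2 probes gave -0.13 (interval -0.37 to 0.10) and 0.11 (interval -0.16 to 0.39), with overlapping groups. These intervals leave room for changes of up to 0.56 on the log2 scale and not for a fall of the size seen in the C branch.

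Gsdmd, the target of inflammatory caspases, was measured with 10 spots per array. It read 3.37, 3.38 and 3.34 in Cdx1+/+ and 3.25, 3.21 and 3.31 in Cdx1-/- mTEC. The Cdx1-/- arrays all lie lower, by -0.11 (interval -0.30 to 0.08, limma adjusted p = 0.416), which did not pass the test.

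Slide 1 held the 3 Cdx1+/+ and 2 of the Cdx1-/- mTEC arrays, and Cdx1-/- replicate 1 was on slide 2 with both SIEC arrays. Within slide 1 the differences were -1.95 and -1.69 for the Gsdmc3 probes, -1.60 for Gsdmc, -1.54 for Gsdmc4 and -1.97 for Gsdmcl-ps. All were called there too (limma, adjusted p = 0.0084 to 0.0165), as was Gsdmcl2 (adjusted p = 0.0194), whose Cdx1-/- signal is not above background. With slide as a block the same 6 passed.

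Other gasdermin genes sit on the array under older names. Gsdme (Dfna5), which caspase-3 opens, read -0.21, -0.65 and -0.10 in Cdx1+/+ and -0.56, -0.41 and -0.36 in Cdx1-/- mTEC with its brighter probe, a difference of -0.12 (limma adjusted p = 0.642). Pjvk (Dfnb59), the gene behind a form of deafness, differed by 0.17 (adjusted p = 0.404). Neither passed the test.

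**Figure D2:**
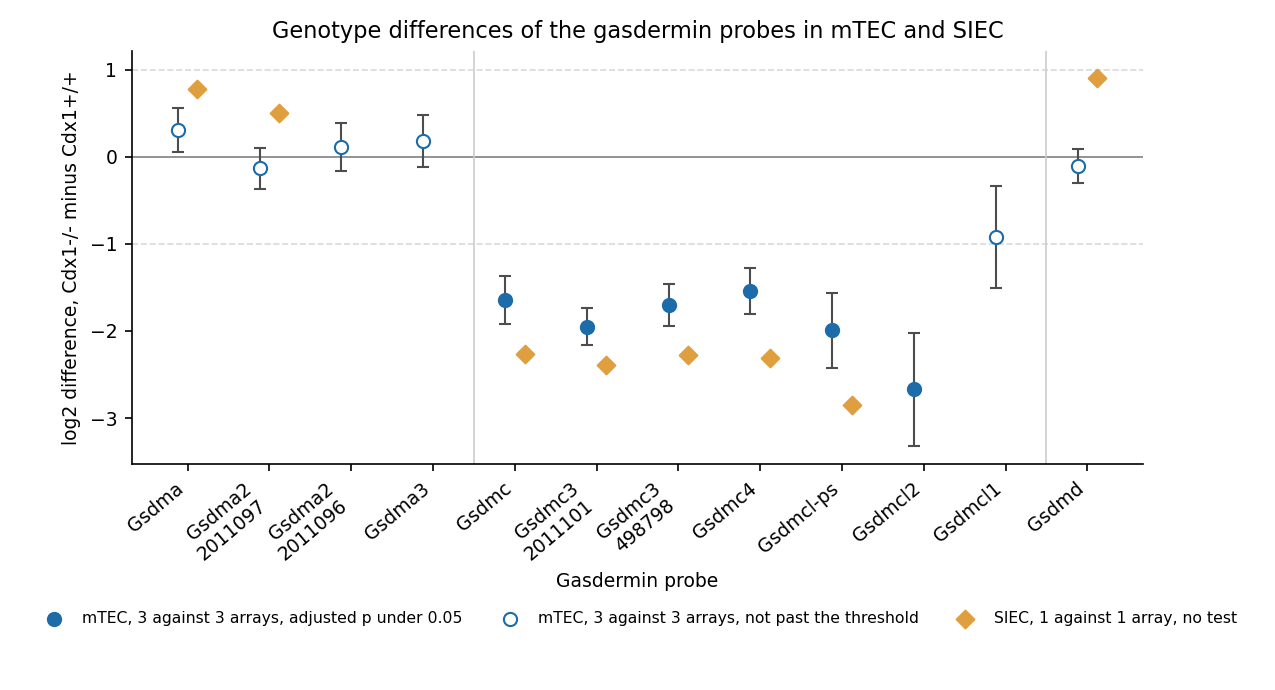
Log2 difference of Cdx1-/- minus Cdx1+/+ (y axis) for each gasdermin probe (x axis). Circles are mTEC with 95% confidence intervals, filled where the adjusted p was under 0.05; diamonds are the SIEC pair by its labels, 1 array each and no test, and the dashed lines mark 2-fold. The 5 C branch probes measured in both tissues lie below zero, from -1.54 to -1.99 in mTEC and from -2.27 to -2.39 in SIEC for all but Gsdmcl-ps, which was not above background on the array labelled Cdx1-/-.

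The SIEC pair puts the same question to intestinal epithelium, with 1 array per genotype and so no test. The C branch was again lower on the array labelled Cdx1-/-, by more than 4-fold, and the A branch and Gsdmd read slightly higher there. Of the 12 probes 8 were above background on at least 1 SIEC array, and 5 of these, all of the C branch, were at least 2-fold lower on the array labelled Cdx1-/-. Over all probes measured 9.29% were at least 2-fold apart, 3.61% lower and 5.69% higher.

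With probe A_55_P2011101 Gsdmc3 read 6.66 under the label Cdx1+/+ and 4.27 under the label Cdx1-/-, a difference of -2.39. Its other probe read 5.46 and 3.18, a difference of -2.28. Gsdmc read 5.30 and 3.04, and Gsdmc4 read 6.00 and 3.69. These 4 readings differ from each other by little, between -2.27 and -2.39. Gsdmcl-ps read -1.01 on the first array and was not above background on the second, so it was at least 5.88-fold lower. With normexp its difference was -1.12 in place of -2.85. Gsdmcl1 and Gsdmcl2 were not above background on either array.

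Gsdmd read higher on the array labelled Cdx1-/-, at 4.50 and 5.40, a difference of 0.90. Gsdma read -2.44 and -1.67, and Gsdma2 read 0.44 and 0.94 with probe A_55_P2011097. These differences stay under 2-fold. Gsdma3 and the other Gsdma2 probe were not above background in SIEC.

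The mTEC comparison and the SIEC pair share no array. The family was selected on both differences, though, so its place in both is a description and no independent support. Near copies can also share signal. The 5 C branch probes measured in both were called lower in mTEC and at least 2-fold lower in the SIEC pair. Over the 24446 probes measured in both this held for 43, or 0.176%. Those 43 were 4.77% of the 901 probes lower in mTEC and 6.63% of the 649 lower in the SIEC pair. If the labels of the SIEC pair were exchanged, the C branch would be higher without Cdx1 in SIEC.

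Several marker lists differed within the SIEC pair as well. Of the thymocyte markers 4 of 4 measured were at least 2-fold higher on the array labelled Cdx1-/- (Cd3e at 2.14 and 3.29, Cd8a at -0.72 and 1.16), with a summed level of 11.1 and 30.7, while Rag1 and Ptcra were not above background. Of the tuft cell markers 3 of 4 were at least 2-fold lower there, with summed levels of 4.69 and 1.76. Of 14 enterocyte genes 0 were at least 2-fold lower and 2 were higher, of 6 goblet and 4 Paneth genes 0 were 2-fold apart. The part of these differences in the gasdermin values was not tested. In bulk samples fewer cells of a type and less RNA per cell cannot be told apart.

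Set side by side, the tissues differ by branch. The A branch was higher in mTEC, and Gsdmc, Gsdmc3, Gsdmc4 and Gsdmd were higher in SIEC. Tissues were compared over all 8 arrays with genotype as an additive term (limma), 2 SIEC against 6 mTEC arrays. With 1 SIEC array per label, the error comes from the mTEC pools and from any genotype difference that is unequal between tissues. The SE and p-values of this comparison therefore do not measure the spread between SIEC pools, and they depend on the SIEC labels. Of the 12 probes 5 were called higher and 5 lower in SIEC, but 82.2% of the 35226 probes tested were called, 49.5% higher and 32.7% lower, so a call by itself says little here and the sizes matter more. The median over all probes was 0.46 higher in SIEC, and 0.24 to 0.93 under the other scalings. The share of calls that were higher was 60.2%, and 74.0% with normexp.

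Gsdma read 3.99 to 4.45 over the 6 mTEC arrays and -2.44 and -1.67 in SIEC. That is 80.0-fold lower in SIEC (difference -6.32, SE 0.14, limma adjusted p = 1.68e-08). Gsdma2 read 3.54 to 3.83 in mTEC and 0.44 and 0.94 in SIEC with probe A_55_P2011097 (difference -2.98, adjusted p = 1.18e-06). Gsdma3 was lower by a bound of at least 3.32 on the log2 scale and the other Gsdma2 probe at least 3.70-fold lower, since neither was above background in SIEC. These bounds hold for the main background subtraction only. With normexp the differences were smaller, -1.57 for Gsdma3 and -0.44 for that Gsdma2 probe. Differences of at least 4-fold in this direction were found for 18.3% of all probes.

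The coding genes of the C branch went the other way. Gsdmc4 was 16.0-fold higher in SIEC (difference 4.00, SE 0.18, limma adjusted p = 5.26e-07), Gsdmc 9.71-fold (3.28, SE 0.17) and Gsdmc3 9.49-fold and 7.54-fold with its probes (3.25 and 2.91). Cdx1-/- mTEC had the lowest readings of these probes, then Cdx1+/+ mTEC, then the SIEC array labelled Cdx1-/-, then the one labelled Cdx1+/+. At least 8-fold higher levels in SIEC were found for 4.93% of all probes. Within slide 2 the only mTEC array is Cdx1-/-, and it was set against the mean of both SIEC arrays without a genotype term. These differences therefore also hold the genotype difference. They were 4.24 and 3.80 for Gsdmc3 and 4.78 for Gsdmc4, with Gsdmc between them. The A branch differences there were -6.45 for Gsdma and -2.87 for Gsdma2 (A_55_P2011097).

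The pseudogene copies did not follow the coding genes. Gsdmcl-ps was called lower in SIEC (difference -0.87, SE 0.24, limma adjusted p = 0.009996), between a SIEC reading of -1.01 inside the mTEC range of -2.82 to -0.33 and 1 below it, and this call was lost or turned under 9 of 19 alternatives, the median scaling, the slide block and the fit without the SIEC array labelled Cdx1-/- (-0.44) among them. Gsdmcl1 and Gsdmcl2 were not above background in SIEC and their differences did not pass the test. Gsdmd was 3.12-fold higher in SIEC (difference 1.64, SE 0.21, adjusted p = 0.000163). Gsdme was 22.2-fold higher in SIEC with its brighter probe, at 3.87 and 4.32 (difference 4.47, limma adjusted p = 3.53e-07), and Pjvk was at least 1.28-fold lower. The other Gsdme probe, A_55_P2175318, was above background on 0 of 6 mTEC and 0 of 2 SIEC arrays and was not tested.

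**Figure D3:**
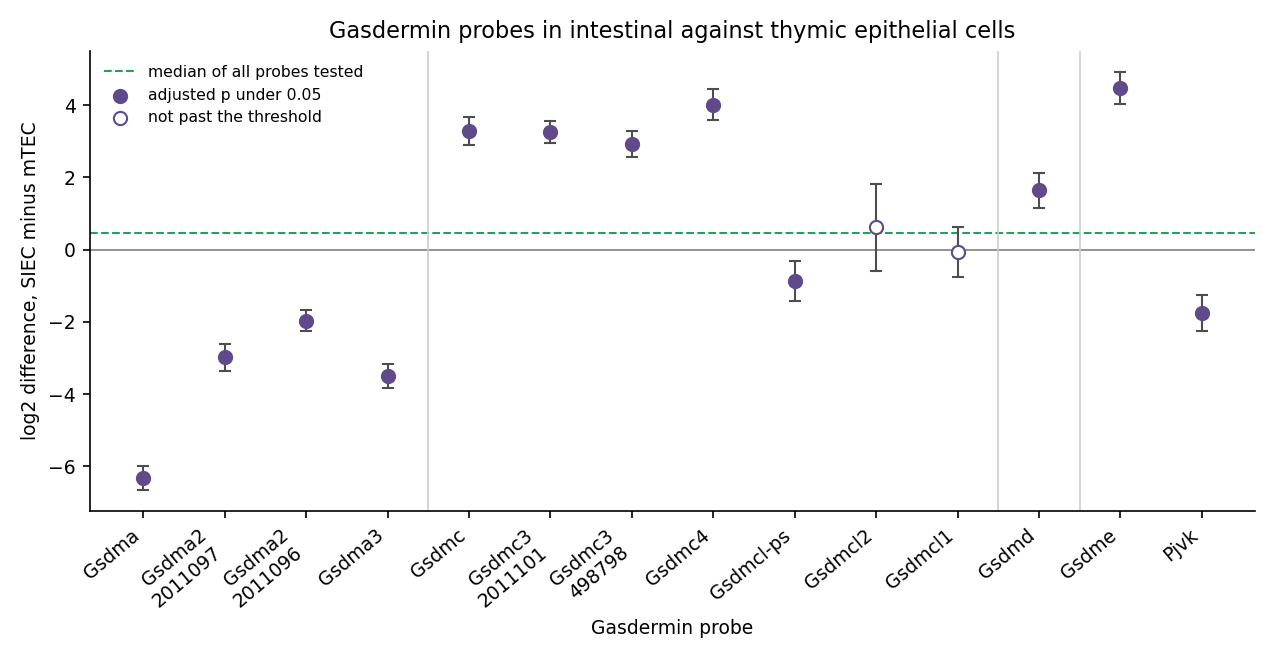
Log2 difference of SIEC minus mTEC (y axis) for the 12 gasdermin probes and for Gsdme and Pjvk (x axis), with 95% confidence intervals; filled circles had an adjusted p under 0.05 and the dashed line is the median of all probes, 0.46. Gsdma lies at -6.32, the Gsdma2 probe measured in SIEC at -2.98, the coding C branch genes between 2.91 and 4.00, and Gsdmd at 1.64; Gsdma3, the other Gsdma2 probe, Gsdmcl1, Gsdmcl2 and Pjvk were not above background in SIEC.

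None of the tested neighbours of the C branch passed the test in mTEC. Within 250 kb of a C branch probe there were 10 other probes, of which 6 were tested and 0 were called (limma, differences from -0.68 to 0.19). Over all probes 10.5% were called, so 0 of so few is near that share and does not set the block apart. The nearest, Cyrib, 4.04 kb from the Gsdmcl-ps probe, differed by 0.19 (adjusted p = 0.311). The probe of 4930449C09Rik, 39.4 kb from Gsdmc, came closest to a call, with -0.68 (SE 0.20, adjusted p = 0.0769), and was above background on 3 of 6 mTEC arrays. Asap1 on the far side differed by 0.10. In the SIEC pair 1 of 6 neighbours was at least 2-fold lower, beside 3.61% of all probes. It was the unnamed probe A_55_P1964247, 4.28 kb from a Gsdmc3 probe and inside the block. It read -1.96 on the array labelled Cdx1+/+ and was not above background on the other or on any mTEC array.

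Around the A branch 1 of 22 tested neighbours was called higher and 1 lower in mTEC. Csf3, the granulocyte growth factor, was lower (-0.88, SE 0.18, limma adjusted p = 0.0309) and 1 probe of Msl1, a chromatin regulator, was higher (0.46, adjusted p = 0.0327). Around Gsdmd 2 of 27 were called, both higher, a probe of Ccdc166 (0.66) and a probe of Eppk1 (0.56). These shares are near or below the 10.5% of all probes, and each of the 4 calls was lost under 8 or more of the alternatives tried.

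**Figure D4:**
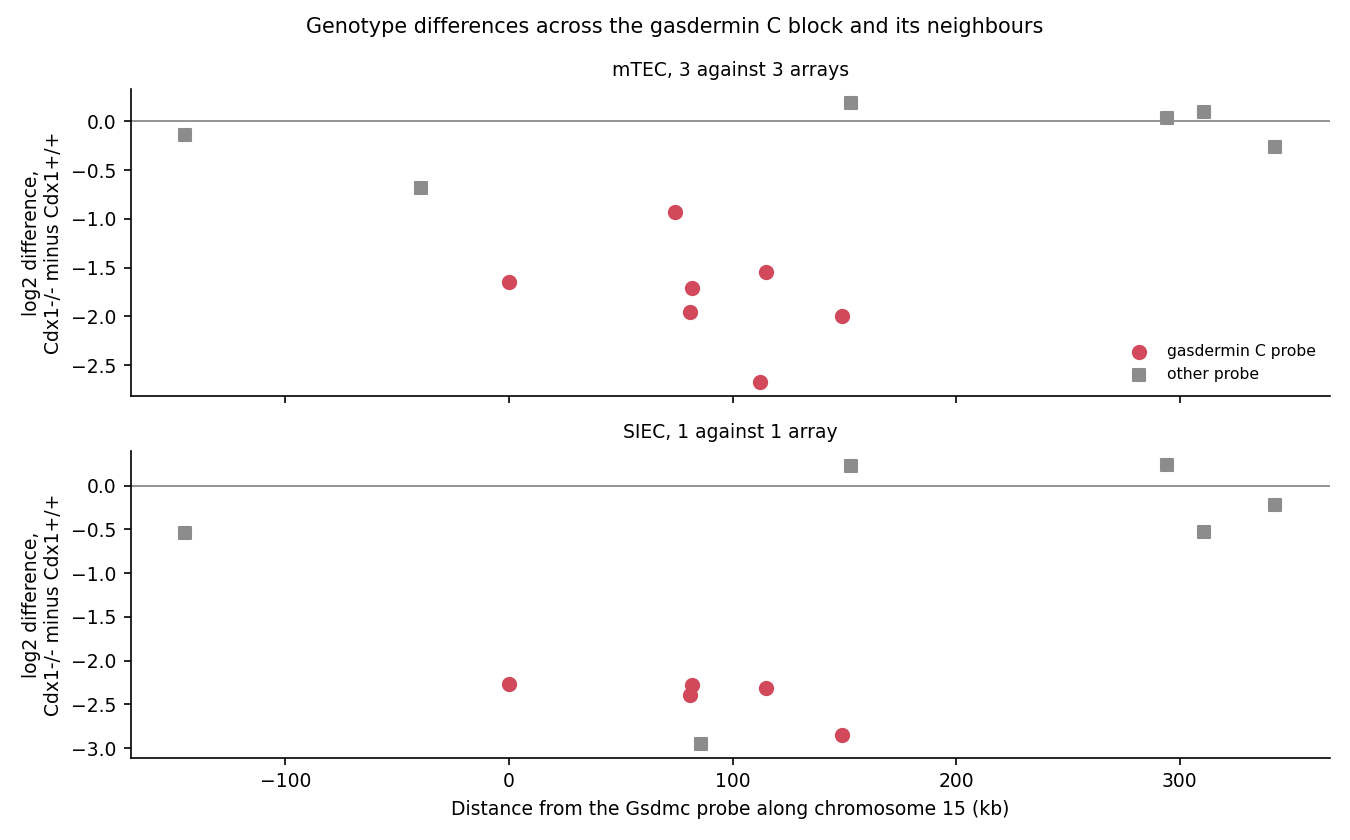
Log2 difference of Cdx1-/- minus Cdx1+/+ (y axis) against distance from the Gsdmc probe along chromosome 15 in kb (x axis), for gasdermin C probes (circles) and other probes within 250 kb (squares), above in mTEC and below in the SIEC pair by its labels. In mTEC the neighbours lie between -0.68 and 0.19 and the 5 gasdermin probes above background on all 6 arrays between -1.54 and -1.99, while Gsdmcl1 and Gsdmcl2 were not above background in Cdx1-/- arrays; in SIEC 1 unnamed probe inside the block lies with the gasdermins, at -2.95 against an array where it was not above background.

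Likeness over the 8 arrays was measured as the root mean square difference of levels centred on each probe's mean. From the brightest C branch probe, A_55_P2011101 of Gsdmc3, the nearest were the family's own Gsdmc (0.163), the other Gsdmc3 probe (0.194) and Gsdmc4 (0.381). The pseudogene copies of the branch lay farther away than the outside genes named next, Gsdmcl2 at 1.33, Gsdmcl1 at 1.64 and Gsdmcl-ps at 1.80. The nearest genes outside were 4930598N05Rik (0.537), Pla2g4c, a phospholipase (0.568), and Ugt2b5, a glucuronosyltransferase (0.584). The first of these was too dim to be tested in mTEC, so its place rests on signal near background. Pla2g4c was lower in Cdx1-/- mTEC (-1.19, limma adjusted p = 0.0133) and differed by -4.09 in the SIEC pair, and Ugt2b5 was lower in mTEC (-1.28, adjusted p = 0.0189) and differed by -0.57 in the SIEC pair. For Gsdma2 (A_55_P2011097) the nearest were Slc35f3 (0.0783), Ttc29 (0.0804) and Prdm8 (0.0816), ahead of Gsdma3 (0.323), the other Gsdma2 probe (0.489) and Gsdma (1.47). None of those 3 genes was above background in SIEC, so the order is set in part by background signal. For Gsdmd they were 3300002I08Rik (0.0919), AU040320 (0.0933) and Itgb4 (0.0944). The gap between tissues weighs most in this measure.

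The other genes of the pathway were followed as lists, to be read beside the 10.5% of all probes called in mTEC. Of 15 inflammasome sensors and adaptors 1 was called higher and 1 lower, with a median difference of -0.07. Nlrp1b, a sensor of pathogen proteases, rose from -2.45 ± 0.28 to -1.24 ± 0.09 (SD, n = 3; limma adjusted p = 0.00951). Nlrp9b, a sensor known from intestinal epithelium, fell from -4.18 ± 0.36 to -4.98 ± 0.16, but was above background on 0 of 3 Cdx1-/- arrays and its call (adjusted p = 0.0469) was lost under 13 of 16 alternatives. Pycard, the adaptor ASC, differed by 0.41 (adjusted p = 0.0634).

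Of 10 proteases that cut gasdermins 1 was called higher and 1 lower. Casp6 was higher by 0.47 (limma adjusted p = 0.0319) and Ctsg, the neutrophil protease cathepsin G, was lower (-0.69, adjusted p = 0.0198), and 9 and 6 of 16 alternatives took these calls away. Casp1 and Casp4, which cut Gsdmd, differed by 0.16 and -0.01, and Casp8, which cuts Gsdmc, by 0.21, and none passed. Of 8 released cytokines and membrane rupture genes 0 were called, and of 6 ESCRT membrane repair genes 0 (limma). Of 6 regulators 1 was called, Zdhhc9, a palmitoyl transferase (0.55, adjusted p = 0.0152), whose call was lost with no filter and without Cdx1+/+ mTEC replicate 3 (0.53, adjusted p = 0.0567), and Irf2, an activator of Gsdmd, differed by 0.08.

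In the SIEC pair the proteases set apart were granzymes. Gzma read 5.70 under the label Cdx1+/+ and 7.96 under the label Cdx1-/-, and Gzmb 1.42 and 3.52, beside the thymocyte markers given above. Casp1, Casp6 and Casp8 differed by 0.00, 0.07 and 0.09. Nlrp9b read 0.09 and 1.63. In the tissue comparison 9 of 15 sensors were higher in SIEC, Naip6 and Nlrp6 among them (5.73 and 5.61, limma), and 4 were lower, Nlrp1a, Nlrp10, Mefv and Nek7, beside 49.5% and 32.7% of all probes. In that comparison Il18 was higher by 4.88 while Il1b and Il1rn were not above background in SIEC.

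Genes of the type 2 cytokine axis, which raises the C branch in intestine, were in part higher in Cdx1-/- mTEC. Of 14 tested 4 were called higher and 0 lower (limma), beside 5.2% and 5.29% of all probes, with a median of 0.14. They were Trpm5 (0.83, limma adjusted p = 0.0183) and Gnat3 (1.06) of tuft cells, the tuft cell cytokine Il25 (0.82) and its receptor Il17rb (0.57), and 4 to 11 of 16 alternatives took these calls away. The cytokines Il4 and Il13 differed by -0.09 and -0.47 and did not pass (adjusted p = 0.574 and 0.0565). Il4ra, Il13ra1, Il13ra2 and Stat6 of the same list differed by -0.43, 0.10, -0.11 and -0.19 and did not pass either. In the SIEC pair 4 of 9 measured were at least 2-fold lower on the array labelled Cdx1-/- and 0 higher. Retnlb, a goblet cell product raised by type 2 cytokines, read 2.49 and -1.49, Trpm5 1.53 and 0.01, and Sucnr1, the tuft cell succinate receptor, -0.83 and -1.94.

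The enterocyte genes fell with the C branch in mTEC. Of 14 tested 11 were called lower and 0 higher in Cdx1-/- mTEC, beside 5.29% and 5.2% of all probes, with a median of -0.95. Sis, sucrase-isomaltase, fell from 0.35 ± 0.03 to -1.51 ± 0.08 (difference -1.86, limma adjusted p = 0.00153), and Fabp1, Lgals4 and Cdhr5 were lower too (-1.44, -1.54 and -2.11). Cdx2, the paralog of Cdx1, fell by 0.84 (adjusted p = 0.0146), a call lost with no filter and without Cdx1+/+ mTEC replicate 3 (-0.78, adjusted p = 0.0508). In the SIEC pair the enterocyte genes did not go with the C branch, with a median of 0.61 and 0 of 14 at least 2-fold lower. Summed levels of the enterocyte genes were 59.3 to 67.9 in Cdx1+/+ and 27.7 to 28.2 in Cdx1-/- mTEC, and 3074 and 4537 in SIEC.

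Cornified keratinocyte genes, which belong to the tissue of the A branch, rose in part. Of 13 tested 7 were called higher and 0 lower in Cdx1-/- mTEC, beside 5.2% and 5.29% of all probes, with a median of 0.69, while 0 of 4 A branch probes were called. Spink5, a protease inhibitor of skin, rose from 3.48 ± 0.03 to 4.59 ± 0.15 (difference 1.11, limma adjusted p = 0.00502), Krt10 by 1.07, Ivl by 0.72 and Sbsn by 0.69. Markers of other cells that a thymus sort can hold were followed in mTEC as well. Of 5 tuft cell markers 3 were called higher in Cdx1-/- arrays, Avil, Trpm5 and Gnat3, with a median of 0.83 and summed levels of 2.65 to 3.44 in Cdx1+/+ and 4.68 to 5.55 in Cdx1-/- arrays. The calls of Trpm5 and Gnat3 are the same as those given for the type 2 list. Summed levels of thymocyte markers were 10.1 to 13.9 in Cdx1+/+ and 9.18 to 12.01 in Cdx1-/- arrays, where 1 of 6, Ptcra, was called lower (-0.49, limma adjusted p = 0.0258). Those of dendritic cell and macrophage markers were 17.0 to 17.6 and 17.0 to 18.2, with Mrc1 lower (-1.43) and Lyz2 higher (0.93). Those of B cells were 1.72 to 1.90 and 1.24 to 1.48, and of neutrophils 164 to 195 and 134 to 156, with 0 of 3 markers called in either list (limma). Their part in the gasdermin values was not tested.

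**Figure D5:**
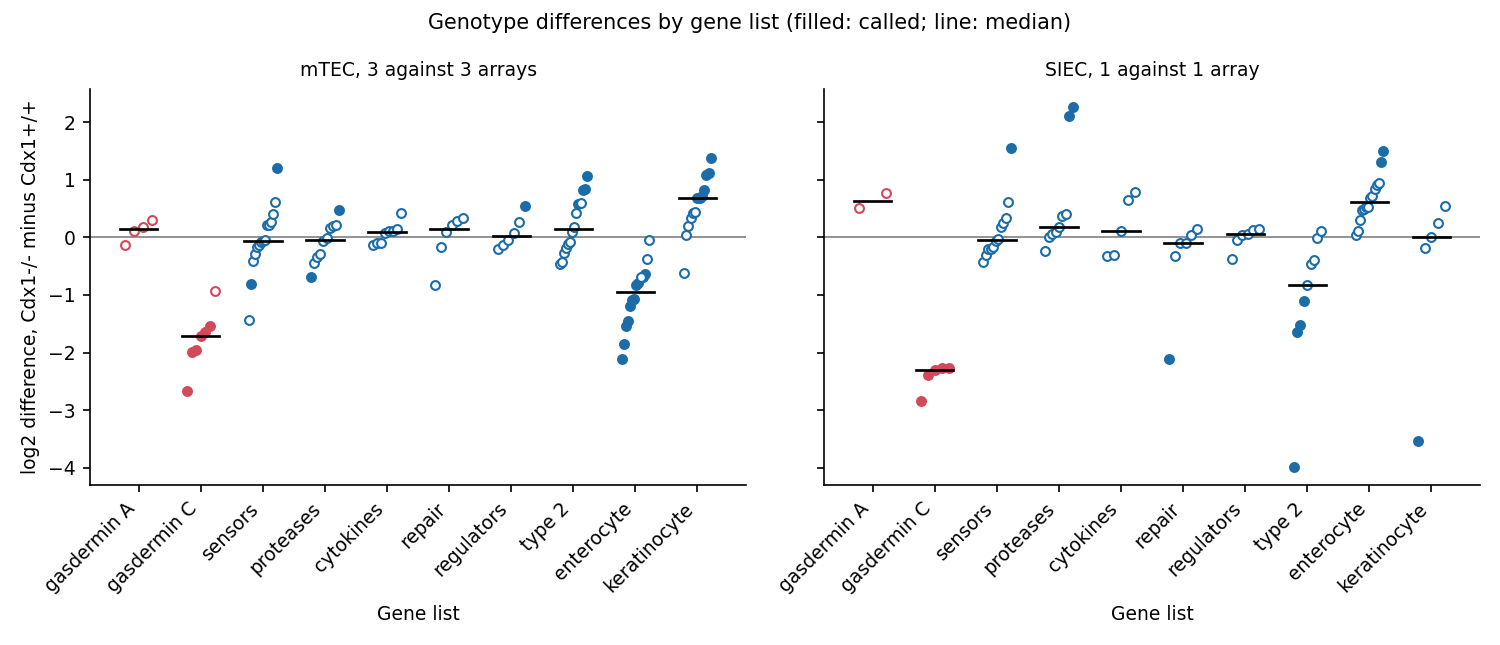
Log2 difference of Cdx1-/- minus Cdx1+/+ (y axis) of each gene or probe in the gasdermin A and C branches (red) and in 8 gene lists (blue, x axis), at left in mTEC and at right in the SIEC pair by its labels; filled points were called and lines are medians. The gasdermin C median is -1.71 in mTEC and -2.31 in SIEC, the enterocyte median -0.95 in mTEC and 0.61 in SIEC, and the type 2 median 0.14 and -0.84.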

How the data were processed

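Per the labels, RNA was extracted and labelled by a service company. The deposited scanner files hold linear intensity per spot from Agilent Feature Extraction 10.7.3.1, already background-subtracted, per the file headers. A deposited normalized table equals this processed intensity times 1 constant per array, which sets the median of each array to 1. The labels do not state this choice. Spots of a probe were averaged as log2 intensity minus the array's 75th percentile, without control and outlier spots.

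Probes that 2 arrays of any mTEC group (or, between tissues, 1 SIEC array) read well above background were fitted with limma 3.58.1 in R 4.3.3, 2-sided, Benjamini-Hochberg over all probes, threshold 0.05. The SIEC pair was called at 2-fold. Python 3.11.15, pandas 2.3.3 and matplotlib 3.10.9 were used. The fit was tested on simulated data. Names came through RefSeq accessions for 27503 probes.

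Members, gene lists and naming rule (every Gsdm probe; per list up to 4 genes of smallest p or largest tissue difference, from the brightest tested probe of each gene; called neighbours; the 3 nearest patterns) were chosen with earlier results of these data known. Some list genes and markers were named outside that rule, after their values were seen. Same-numbered mTEC replicates of the titles deviated together from their group means (r = 0.295, 0.135 and 0.158). Between genotypes, differently numbered ones gave r from -0.205 to 0.032. The numbers may therefore pair the samples. The main fit left this pairing out, and a replicate block was fitted as an alternative. Other alternatives covered background, scaling, filter, slide, probe choice and each array left out. The number of arrays limits the precision, and 0 spots were saturated.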

Additional observations from a re-analysis of the deposited data

Results flagged for a closer look

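Gsdmd, the target of inflammatory caspases, read lower without Cdx1 on every mTEC array and higher on the SIEC array labelled Cdx1-/-. It differed by -0.11 in mTEC (95% confidence interval -0.30 to 0.08, limma adjusted p = 0.416), which did not pass the test, though all 3 Cdx1-/- arrays lay below all 3 Cdx1+/+ arrays, as groups do not overlap for 36.4% of all probes. In the SIEC pair it differed by 0.90, from 1 array of each label, and those labels are in doubt. The difference between the tissues was not tested.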

How the results depend on the processing

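Of the calls in mTEC, those of Gsdmc, Gsdmc4, Gsdmcl-ps and both Gsdmc3 probes held under every alternative tried, with the highest adjusted p at 0.0247 (limma). Leaving out 1 array gave 6 to 7 members called lower in mTEC, and 5 to 6 higher and 4 to 5 lower between tissues. The highest count came without Cdx1-/- mTEC replicate 3, where Gsdmcl1 passed (-1.17, adjusted p = 0.0358). All probes called in mTEC numbered 3519, against 1083 to 1881 with 1 array left out, 1899 with normexp, 1768 with a slide block, 716 with no filter and 1881 within slide 1. Each of the 6 arrays left out lowered this count by over 1.5 times. Between tissues 28947 probes were called, 27397 to 28739 with 1 array left out and 43552 without a filter. In the SIEC pair 2430 were called and 553 with normexp, while the 5 members stayed called under the 4 alternatives. Among these the array median and the authors' table are in effect the same scaling. Of the SIEC pair calls 61.2% were higher, and 41.8% with the array median, which moved the median of all probes from -0.04 to -0.26. The replicate block moved no other member's call than that of Gsdmcl1. The tissue difference of Gsdmcl1 (-0.06) turned to 0.85 with normexp (adjusted p = 0.00303, past the threshold), 0.41 with the array median and with the authors' table, 0.16 with slide as a block, 0.02 without Cdx1-/- mTEC replicate 3 and lay at -0.53 to 0.40 with 1 array left out. That of Gsdmcl2 (0.62) turned to -0.60 with the Cdx1+/+ arrays only and without Cdx1-/- SIEC replicate 2, and passed at 1.84 without Cdx1+/+ SIEC replicate 1 and at 0.85 with normexp. That of Gsdmcl-ps (-0.87) turned to 0.17 within slide 2, where the only mTEC array is Cdx1-/- and no genotype term was used. With normexp the tissue difference of Gsdma3 was -1.57 and that of Gsdma2 (A_55_P2011096) -0.44, both still called. The cause of these shifts was not tested. Signal near background limits the pseudogene probes.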
